A study of Homo sapiens with 6 samples.

Results

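The 41 genes described here control the entry of cells from G2 into mitosis, some by promoting it and some by holding it back, and the passage through it. They were chosen by name as a list of G2/M genes built around WEE1, and their values in these libraries were not the rule. Earlier results of the same libraries were known when the list was made, and WEE1 was already known to be called. All 41 were found among the 60671 genes of the deposited tables, and none was lost to the low-count filter, which left 15663 genes for testing. The libraries came from KGN cells, a human granulosa cell line, which had been genome-edited to carry wild-type FOXL2 on both alleles (labelled FOXL2 WT/WT). Cells received 30 pmol of siRNAs against FOXL2, or as much of a scrambled control siRNA, and RNA was taken 30 h after transfection. Both groups shared the edited genotype and the transfection reagent. Each FOXL2 siRNA library had its own pool of 3 siRNAs out of 4, with 1 siRNA common to all pools, so these 3 libraries repeat the depletion and not the mixture of siRNAs. Nothing in the labels says whether the libraries of a group came from separate cultures, and the p-values measure the spread between these libraries. Total expected counts were 25025168, 24592016 and 27316167 in control siRNA replicates 1, 2 and 3 and 27382590, 23843192 and 28791954 in FOXL2 siRNA replicates 1, 2 and 3.

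Entry into mitosis depends on CDK1, a kinase that works with cyclins A and B. WEE1 and PKMYT1 are kinases that hold CDK1 inactive by phosphorylating it on inhibitory residues, WEE1 in the nucleus and PKMYT1 at membranes, and the CDC25 phosphatases remove these phosphates. Once CDK1 is active, polo and Aurora kinases, the kinetochores and the spindle carry out chromosome segregation, and the anaphase-promoting complex (APC/C) with CDC20 ends mitosis by marking cyclins and securin for destruction. In most cell types transcripts of many of these genes, though not of all, accumulate late in the cell cycle, and RNA of a culture averages over cells in all phases. In such bulk RNA, fewer cells in G2 and mitosis and less of a transcript per cell cannot be told apart.

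Many G2/M promoters carry a cell-cycle homology region (CHR), bound by the MuvB complex, and CCAAT boxes, bound by NF-Y. Promoter windows of 300 bases (250 before and 50 after the start, RefSeq, GRCh38.p14) were at hand for 34 of the 41 genes. The 7 genes with no window were AURKA, BIRC5, BUB3, PKMYT1, TPX2, TTK and WEE1. The letters TTTGAA, searched on both strands, were found in 22 of the 34 windows (64.7%), against 9.85% of the 11061 tested genes with a window and 15.4% of all 27305 windows. CCAAT on either strand was found in 25 of 34 (73.5%), against 36.7% of tested genes and 35.7% of all windows, and both motifs in 17 of 34 (50%), against 4.20% and 6.08%. The forkhead core TAAACA was found in 3 of 34 (8.82%), against 7.01% and 12.4%, and the E-box CACGTG in 5 of 34 (14.7%), against 9.84% and 7.43%. These searches describe letters only. The stretches below are shown because they come from genes of 5 role groups and hold the letters common to most of the list; TTTGAA is in capitals, each stretch reads 5′ to 3′ on the strand of its gene, and the number is the distance of the first capital from the start.
CCNB2 (-29, chr15:59105106-59105133, plus strand): gcgacgcggtaTTTGAAtcctggaacaa
PLK1 (-29, chr16:23678849-23678876, plus strand): ccagcgccgcgTTTGAAttcggggagga
CDC20 (-65, chr1:43358905-43358932, plus strand): gacggttggatTTTGAAggagccaatag
CDCA8 (-23, chr1:37692482-37692509, plus strand): tgactgtggagTTTGAAttgggtggcgg
PRC1 (-20, chr15:90994539-90994566, minus strand): ccgtggcgcggTTTGAAattttgcgggg

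The labels were checked first. FOXL2, the gene targeted by the siRNAs, had rounded expected counts of 248, 238 and 290 with the control siRNA and 72, 80 and 68 after depletion, which gave a log2 fold change of -1.88 ± 0.142 (standard error) and an adjusted p of 0.00267 in the quasi-likelihood test of edgeR. Among 13 markers looked for in a granulosa cell line, 7 passed the filter on low counts, the most abundant being KRT18 at 902 TPM, FST at 72.1 TPM and NR5A1 at 34.9 TPM with the control siRNA. FSHR and WT1 had 0 counts in all 6 libraries, GATA4 had 1 count in 1 library, and INHA had between 1 and 5 counts, so several markers of differentiated granulosa cells were absent or nearly so from this line. Markers of leukocytes, germ cells, epithelium and endothelium were low, and markers of fibroblasts were not. The summed TPM of leukocyte markers was 0.65, 1.01 and 0.79 with the control siRNA and 0.58, 0.93 and 0.40 after FOXL2 siRNA, germ cell markers had at most 0.04 TPM and epithelial markers at most 0.63 TPM. Endothelial markers summed to 0.46, 0.48 and 0.44 TPM with the control siRNA and to 0.42, 0.61 and 0.98 TPM after FOXL2 siRNA. COL1A1, which is also a marker of fibroblasts, was at 5125 TPM with the control siRNA and 5053 TPM after FOXL2 siRNA (log2 fold change -0.02, edgeR adjusted p = 0.951). It was the most abundant of the 4 markers of fibroblasts and theca cells. PDGFRA had 17.5 and 15.8 TPM and DCN 14.2 and 13.01 TPM in the same order (edgeR adjusted p of 0.416 and 0.614), all above the level of FOXL2, which was 5.45 TPM with the control siRNA. Their part in the results was not tested. CYP17A1, which defines theca cells, had at most 1 count in a library. FOXL2 siRNA replicate 2 stood apart from the other libraries. It had a score of 30.6 on the first principal component of the log2 normalized counts (34.8% of the variance), and the most distant library on the other side, control siRNA replicate 3, had -13.2. Values without FOXL2 siRNA replicate 2 are therefore given beside the named genes whose edgeR call depends on it, and beside some whose values do.

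By edgeR's test on all 6 libraries, 1 of the 41 genes rose and none fell, while DESeq2 also called KIF20A lower. WEE1 rose 1.53-fold after FOXL2 siRNA, and the fitted log2 fold changes of the other 40 genes lay between -0.27 (KIF20A) and 0.30 (CDC25A). edgeR's quasi-likelihood test called 1 of 41 genes at an adjusted p below 0.05, where it called 40 of all 15663 genes tested (0.255%, with 0.109% higher and 0.147% lower). That gene, WEE1, was known to be called when the list was made, so the count is no test of the list. At an unadjusted p below 0.05 there were 5 of 41 (12.2%), WEE1 and CDC25A with higher values and KIF20A, CDCA8 and BUB1B with lower values, and 13.5% of all genes tested reached that level (6.62% higher and 6.88% lower). DESeq2 called 2 of 41, WEE1 higher and KIF20A lower, where it called 3% of the 11675 genes to which it gave an adjusted p (1.22% higher and 1.78% lower). With effective lengths as offsets DESeq2 called the same 2 genes, and 2.8% of all genes it gave an adjusted p (1.05% higher and 1.75% lower). Values of 22 of the 41 genes were higher and of 19 lower, where 51.4% of all genes tested were higher and 48.6% lower. The count was 17 higher and 24 lower with effective lengths in DESeq2, 18 and 23 with limma on TPM, and 16 and 25 without FOXL2 siRNA replicate 2. With all libraries the median log2 fold change was 0.01, as it was over all genes tested. Library by library, the median log2 ratio of the 41 genes to their control means was -0.01, 0.02 and -0.04 with the control siRNA and -0.01, -0.01 and -0.04 after FOXL2 siRNA.

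**Figure D1:**
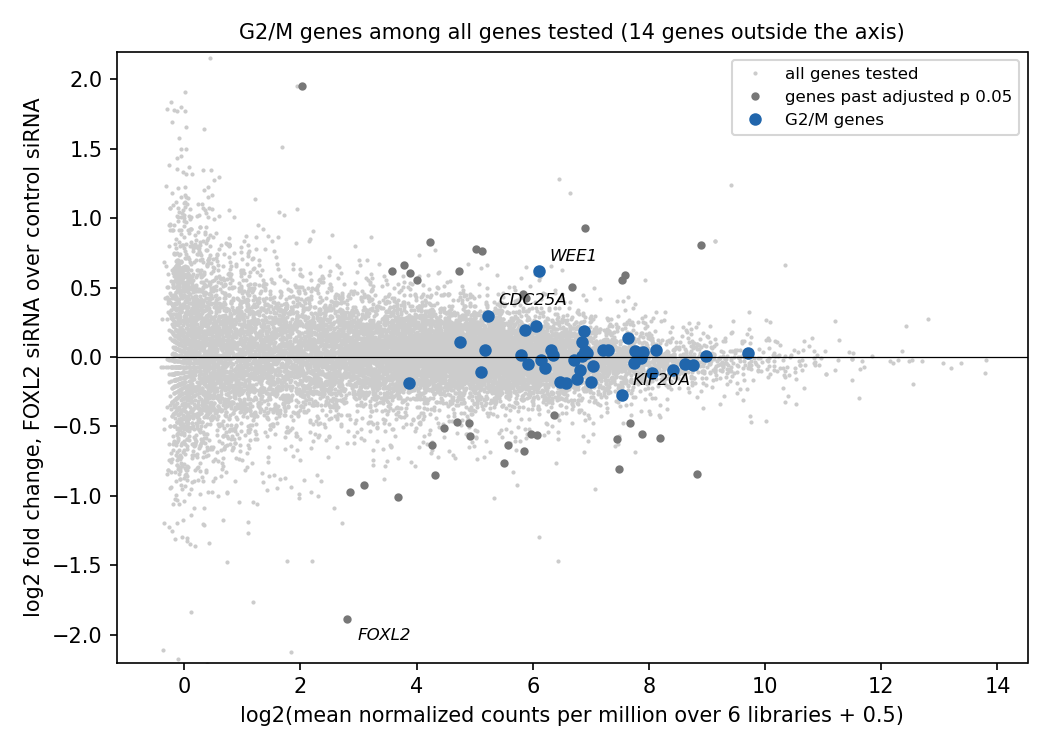
Fitted log2 fold change (vertical axis) against the log2 mean CPM (TMM-normalized) over 6 libraries (horizontal axis) for all 15663 genes tested in grey, genes past an adjusted p of 0.05 in dark grey and the 41 G2/M genes in blue, with 14 genes outside the vertical axis. The G2/M genes lie between -0.27 and 0.30, apart from WEE1 at 0.62.

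The 41 genes were well expressed. Their TPM values, which are scaled to transcript length and to a fixed total per library, summed to 4712, 4848 and 4663 with the control siRNA and to 4682, 4790 and 4651 after FOXL2 siRNA. Means of the sums were 4741 ± 96.0 and 4708 ± 73.3 TPM (SD, n = 3 each), a ratio of 0.993, and the groups overlapped. Without WEE1 the ratio was 0.989. Averaged over all libraries, single genes ranged from 12.5 TPM for CDC25C to 354 TPM for PTTG1, and PTTG1, CCNB1 and ANLN were the most abundant. Neighbours in that order were close: PTTG1 had 360 ± 10.0 and CCNB1 344 ± 7.66 TPM with the control siRNA, and 348 ± 15.5 and 351 ± 16.2 TPM after FOXL2 siRNA (SD, n = 3 each), so that their order was not the same in both groups.

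WEE1 (ENSG00000166483; chromosome 11, 9573681 to 9593457, plus strand, GRCh38 in GENCODE v29) had 38.7, 37.8 and 38.9 TPM in control siRNA replicates 1, 2 and 3 and 66.2, 49.6 and 57.4 TPM in FOXL2 siRNA replicates 1, 2 and 3. The control libraries lay within about 1 TPM of each other, and every FOXL2 siRNA library was above all of them, the lowest being replicate 2. The libraries held 1318, 1388 and 1408 rounded expected counts of WEE1 with the control siRNA against 2524, 1830 and 2307 after FOXL2 siRNA. On the counts, edgeR gave WEE1 a log2 fold change of 0.62 ± 0.0848 (standard error), a 95% interval of 0.43 to 0.81 and an adjusted p of 0.0379. An exact permutation test on the normalized counts gave a two-sided p of 0.1, the smallest that 3 libraries against 3 allow. Leaving out FOXL2 siRNA replicate 2 gave 0.67 (edgeR adjusted p = 0.00330) and DESeq2 gave 0.61 (adjusted p = 5.34e-07). WEE1 was not called by edgeR with a replicate block (adjusted p = 0.0916) or by limma on log2(TPM + 0.1) and log2(TPM + 1) (adjusted p of 0.118 and 0.127). The call was lost when any one of the control siRNA libraries was left out (edgeR adjusted p of 0.298 for replicate 1, 0.177 for replicate 2 and 0.171 for replicate 3). Those fits called only 2, 3 and 2 of all genes, in the same order. It was also lost without FOXL2 siRNA replicate 3 (edgeR adjusted p = 0.0812), where 9 of all genes were called. The call held without FOXL2 siRNA replicate 1, where 0.658% of all genes tested were called (0.107% higher and 0.551% lower). The log2 fold change stayed between 0.53 and 0.67 over all 6 fits with a library left out.

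**Figure D2:**
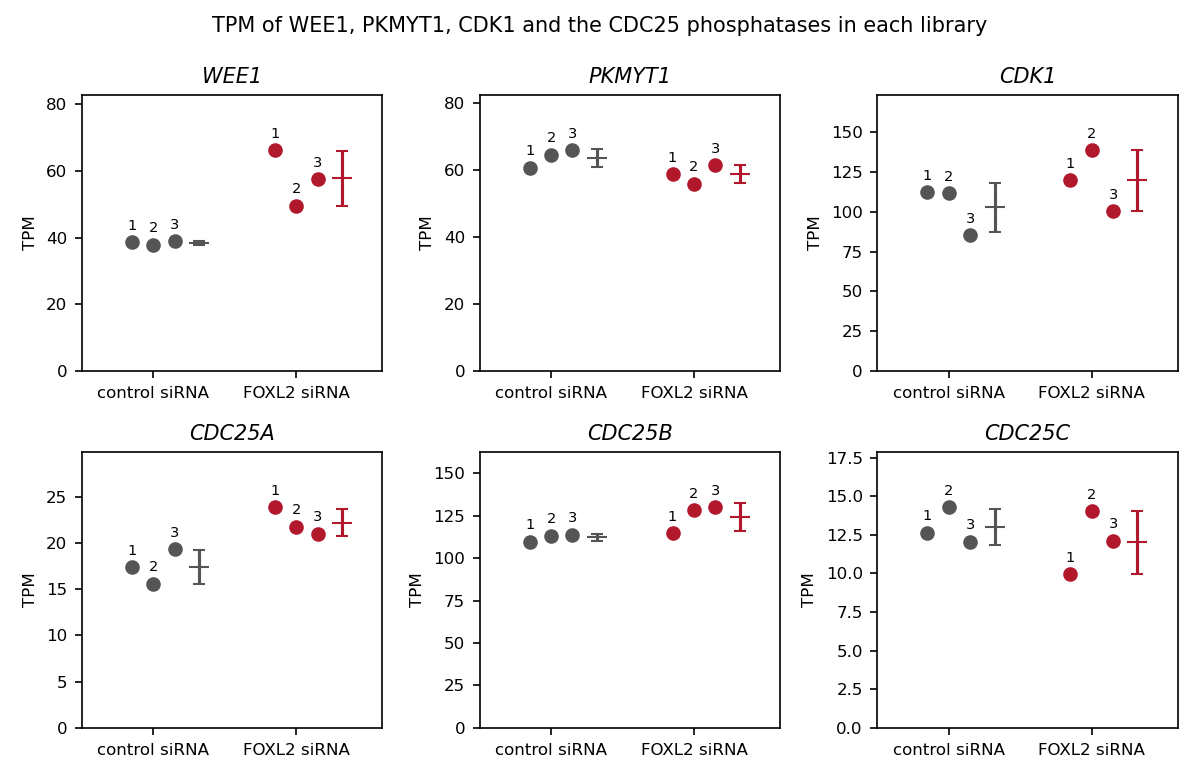
TPM (vertical axes, starting at 0) of WEE1, PKMYT1, CDK1, CDC25A, CDC25B and CDC25C in each library, with points numbered by replicate and with the mean and SD of 3 libraries beside them. WEE1 lies at 37.8 to 38.9 TPM with the control siRNA and at 49.6 to 66.2 TPM after FOXL2 siRNA, while the PKMYT1, CDK1 and CDC25C panels show smaller differences between the group means.

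PKMYT1, the membrane-bound relative of WEE1, had 60.8, 64.6 and 66.0 TPM with the control siRNA and 58.8, 56.0 and 61.5 TPM after FOXL2 siRNA. The groups overlapped through control siRNA replicate 1 and FOXL2 siRNA replicate 3. Its fitted log2 fold change on counts was 0.01 (± 0.0687 as standard error, 95% interval -0.14 to 0.17, edgeR adjusted p = 0.957), an interval that does not reach the 0.43 at the lower end of that of WEE1. With RSEM's effective lengths as offsets, the value for PKMYT1 was -0.12 (edgeR adjusted p = 0.548), because its estimated effective length was greater after FOXL2 siRNA. That length was 1323, 1238 and 1261 bases with the control siRNA and 1425, 1463 and 1382 bases after FOXL2 siRNA, and the groups did not overlap (two-sided p = 0.1 by exact permutation, the smallest possible). Over the 41 genes, the groups did not overlap in effective length for 5 longer genes (CCNB1, CCNB2, PKMYT1, PTTG1 and BIRC5) and 1 shorter gene (TTK), where 7.54% of all genes tested were longer and 2.43% shorter without overlap. WEE1 had effective lengths of 2018, 2236 and 1960 bases with the control siRNA and 2043, 2403 and 2067 bases after FOXL2 siRNA, which overlapped, and with the lengths as offsets its log2 fold change was 0.59 (edgeR adjusted p = 0.0758).

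The balance of the kinases and phosphatases within a library was examined after the values were seen. WEE1 over PKMYT1, as a ratio of TPM values, was 0.636, 0.585 and 0.589 with the control siRNA and 1.13, 0.886 and 0.933 after FOXL2 siRNA (means 0.604 ± 0.0282 and 0.982 ± 0.127, SD, n = 3 each), and the groups did not overlap (two-sided p = 0.1 by exact permutation, the smallest possible). WEE1 over the sum of CDC25A, CDC25B and CDC25C was 0.277, 0.264 and 0.268 with the control siRNA and 0.446, 0.303 and 0.352 after FOXL2 siRNA, again without overlap (exact permutation test, two-sided p = 0.1). Both ratios carry WEE1, whose own TPM values did not overlap, so their separation is not independent of its rise. WEE1 over CDK1 was 0.344, 0.338 and 0.456 with the control siRNA and 0.552, 0.357 and 0.571 after FOXL2 siRNA. These groups overlapped (exact permutation test, two-sided p = 0.2). In TPM, CDK1 was lowest in control siRNA replicate 3 and highest in FOXL2 siRNA replicate 2. WEE1 was also at its lowest after FOXL2 siRNA in that last library. Ratios without WEE1 overlapped as well. PKMYT1 over CDK1 after FOXL2 siRNA was 0.795 times its control mean (exact permutation test, two-sided p = 0.3), and the CDC25 sum over CDK1 was 0.955 times (p = 0.5 by the same exact test). On normalized counts the ratio of WEE1 over CDK1 was 1.35 times as high after FOXL2 siRNA and its groups did not overlap. The ratio of WEE1 over PKMYT1 was 1.52 times as high on normalized counts and 1.63 times in TPM.

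CDK1 itself had 112, 112 and 85.2 TPM with the control siRNA and 120, 139 and 101 TPM after FOXL2 siRNA, a log2 fold change of 0.19 (± 0.0908 as standard error, 95% interval -0.02 to 0.39, edgeR adjusted p = 0.401), and of 0.12 without FOXL2 siRNA replicate 2. Within both groups replicate 3 was the lowest. CCNB1, the main mitotic cyclin, had 346, 351 and 336 TPM with the control siRNA and 366, 334 and 351 TPM after FOXL2 siRNA, and its log2 fold change of 0.05 had an interval of -0.09 to 0.19 (edgeR adjusted p = 0.763). The log2 fold changes of the other cyclins were -0.02 for CCNB2 and 0.05 for CCNA2, and both groups overlapped. With 1 library left out, they ran from -0.05 to 0.01 for CCNB2 and from -0.06 to 0.10 for CCNA2.
Among the phosphatases that counter WEE1, CDC25A had 17.4, 15.6 and 19.3 TPM with the control siRNA and 23.9, 21.8 and 21.0 TPM after FOXL2 siRNA. Every FOXL2 siRNA library was above every control library, with a log2 fold change of 0.30 (± 0.0947 as standard error), and the gene did not pass the test (edgeR adjusted p = 0.237, DESeq2 0.157). CDC25B also did not overlap, at 110, 113 and 114 TPM against 115, 128 and 130 TPM, with a log2 fold change of 0.14 (edgeR adjusted p = 0.417). CDC25C had 12.7, 14.3 and 12.1 TPM with the control siRNA and 9.94, 14.02 and 12.1 TPM after FOXL2 siRNA, and FOXL2 siRNA replicate 1 was the lowest library (log2 fold change -0.19, edgeR adjusted p = 0.519). With 1 library left out, the log2 fold change ran from 0.07 to 0.17 for CDC25B and from -0.28 to -0.09 for CDC25C. Of the 9 genes of this group, 7 had higher and 2 lower values (51.4% of all genes tested were higher), 1 passed edgeR's test (0.255% of all genes, 0.109% higher), and the summed TPM of the group was 913, 932 and 872 with the control siRNA and 962, 984 and 944 after FOXL2 siRNA.

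The polo and Aurora A kinases, which promote CDK1 activation and build the spindle poles, did not pass the test. PLK1 had 182, 184 and 191 TPM with the control siRNA and 189, 178 and 199 TPM after FOXL2 siRNA, a difference within the spread of the libraries, and the 95% interval of its log2 fold change was -0.17 to 0.16 (edgeR adjusted p = 0.987). AURKA had a log2 fold change of 0.05 with an interval of -0.09 to 0.19 (edgeR adjusted p = 0.752).

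**Figure D3:**
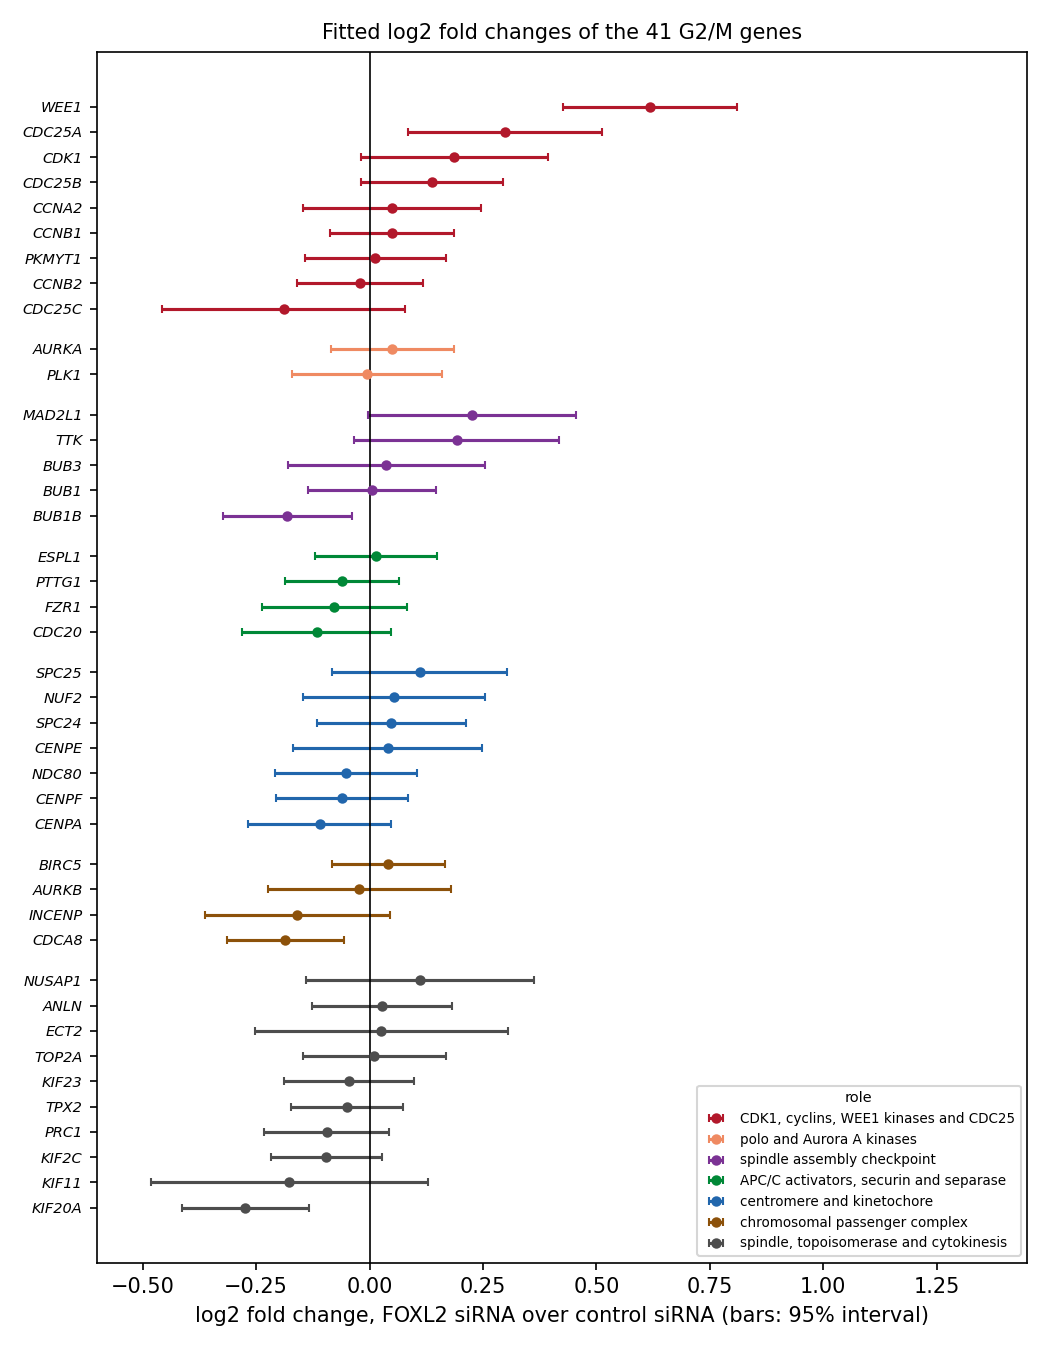
Fitted log2 fold changes (points) and 95% intervals (bars) of the 41 G2/M genes, FOXL2 siRNA over control siRNA, ordered by role and, within a role, by value. The interval of WEE1 runs from 0.43 to 0.81, and the next highest upper end is that of CDC25A at 0.51.

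The spindle assembly checkpoint delays anaphase until all kinetochores are attached. None of its 5 genes was called by edgeR (0.255% of all genes tested) or DESeq2 (3%). For 1, BUB1B, the unadjusted p of edgeR was below 0.05 (13.5% of all genes tested, 6.88% lower). MAD2L1, which binds and holds back CDC20, had the largest fitted log2 fold change of the group, 0.23 (95% interval -0.00 to 0.46, edgeR adjusted p = 0.376). Its TPM values, 100, 98.1 and 89.3 with the control siRNA and 104, 87.0 and 101 after FOXL2 siRNA, show no such difference, because the effective length assigned to it was 1467 bases in FOXL2 siRNA replicate 2 and between 910 and 981 bases in the other 5 libraries. Without that replicate the log2 fold change was 0.12. BUB3, the most abundant gene of the group at 294 ± 4.63 and 287 ± 18.9 TPM (SD, n = 3 each), likewise had 1437 bases in FOXL2 siRNA replicate 2 and 1140 to 1194 elsewhere, and its log2 fold change of 0.04 became -0.09 without that library. BUB1B, a kinase-like subunit of the checkpoint complex, had 58.1, 55.5 and 56.3 TPM with the control siRNA and 52.0, 52.2 and 51.0 TPM after FOXL2 siRNA. The groups did not overlap, and the log2 fold change of -0.18 (± 0.0629 as standard error) did not pass the test (edgeR adjusted p = 0.277).

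None of the 4 genes for the APC/C activators, securin and separase was called by edgeR (0.255% of all genes tested) or DESeq2 (3%). No unadjusted p of edgeR was below 0.05 (13.5% of all genes tested). CDC20, which activates the APC/C, had 290, 288 and 297 TPM with the control siRNA and 291, 261 and 273 TPM after FOXL2 siRNA, a log2 fold change of -0.12 with an interval of -0.28 to 0.05 (edgeR adjusted p = 0.515), and of -0.05 without FOXL2 siRNA replicate 2. PTTG1 is securin, the inhibitor that keeps the protease separase (ESPL1) inactive until anaphase. Its normalized counts were lower in every FOXL2 siRNA library, by a log2 fold change of only -0.06 (95% interval -0.19 to 0.06, edgeR adjusted p = 0.664), while its TPM values overlapped. The separation was a near tie, with 131.789 CPM in control siRNA replicate 3 and 131.785 CPM in FOXL2 siRNA replicate 3.

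The 7 centromere and kinetochore genes, which attach chromosomes to microtubules, had log2 fold changes between -0.11 and 0.11. In normalized counts all 7 overlapped between groups, where 20.5% of all genes tested did not. The TPM values of CENPA, the centromeric histone, did not overlap, at 54.6, 53.4 and 51.4 against 49.1, 46.3 and 47.4. None of the 7 was called by edgeR (0.255% of all genes tested) or DESeq2 (3%), and none had an unadjusted p below 0.05 (13.5%). SPC25, a subunit of the microtubule-binding NDC80 complex, had the largest log2 fold change, 0.11 (95% interval -0.08 to 0.30, edgeR adjusted p = 0.605). The value for SPC25 was 0.042 with effective lengths in edgeR and 0.041 without control siRNA replicate 3. CENPF, the most abundant of them, had 91.4, 114 and 110 TPM with the control siRNA and 90.6, 88.3 and 94.7 TPM after FOXL2 siRNA, and on counts its log2 fold change was -0.06 (edgeR adjusted p = 0.720). With effective lengths in edgeR it was -0.21 (adjusted p = 0.355), and without control siRNA replicate 2 it was -0.0016.
In the chromosomal passenger complex, Aurora B (AURKB) corrects faulty attachments with INCENP, survivin (BIRC5) and borealin (CDCA8). None of these 4 genes was called by edgeR (0.255% of all genes tested) or DESeq2 (3%). An unadjusted p of edgeR below 0.05 was found for 1 of the 4 (13.5% of all genes tested, 6.88% lower). That gene was CDCA8, with 67.0, 69.5 and 68.0 TPM with the control siRNA and 58.3, 66.2 and 59.5 TPM after FOXL2 siRNA. Its FOXL2 siRNA libraries were all below its control libraries, with a log2 fold change of -0.19 (± 0.0573 as standard error, edgeR adjusted p = 0.233). BIRC5 had 154 ± 5.75 and 154 ± 6.83 TPM (SD, n = 3 each), with a fitted log2 difference of 0.04 (edgeR adjusted p = 0.784).

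Of the 10 genes for the spindle, chromosome untangling and cytokinesis, KIF20A had the fitted value farthest from 0. It encodes a kinesin that acts at the central spindle and midbody. KIF20A (ENSG00000112984) had 110, 114 and 102 TPM with the control siRNA and 88.3, 94.6 and 95.6 TPM after FOXL2 siRNA. Every FOXL2 siRNA library was below every control library, and the log2 fold change was -0.27 (± 0.0621 as standard error, 95% interval -0.41 to -0.13). It did not pass edgeR's test (adjusted p = 0.119) and passed DESeq2 (adjusted p = 0.0124; 0.0624 with the replicate number as a block), and without FOXL2 siRNA replicate 2 it passed edgeR as well (adjusted p = 0.0470). KIF11, the kinesin that pushes spindle poles apart, was the other gene called by edgeR without that library. Its TPM values were 43.9, 42.8 and 36.8 with the control siRNA and 30.2, 48.3 and 33.8 after FOXL2 siRNA, so replicate 2 was the highest of all 6 and the other FOXL2 siRNA libraries the lowest. Its log2 fold change was -0.18 (edgeR adjusted p = 0.602) with all libraries and -0.37 (0.0378) without replicate 2, where 3.61% of all genes tested were called (1.05% higher and 2.56% lower). ANLN, a scaffold of the contractile ring and the most abundant of the group at 341 ± 11.1 and 347 ± 24.2 TPM (SD, n = 3 each), had a log2 fold change of 0.03 (edgeR adjusted p = 0.894). KIF2C, TPX2 and PRC1 had lower normalized counts without overlap, with log2 fold changes of -0.10, -0.05 and -0.09, and none of them passed the test. Their TPM values overlapped. Without FOXL2 siRNA replicate 2 the log2 fold changes were -0.10, -0.03 and -0.05 in the same order.

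Groups of 10 of the 41 genes did not overlap in normalized counts, 3 higher and 7 lower after FOXL2 siRNA, or 24.4%. Over all genes tested 20.5% did not overlap, 9.97% higher and 10.6% lower. The 3 higher genes were WEE1, CDC25A and CDC25B, and the 7 lower ones were BUB1B, PTTG1, CDCA8, KIF20A, KIF2C, TPX2 and PRC1. For PTTG1 the groups were separated only by a near tie. FOXL2 siRNA replicate 2 was the highest library for 12 of the 41 genes and the lowest for 10, and over all genes tested it was the highest for 25.6% and the lowest for 24.0%. Without it, the median log2 fold change of the 41 genes was -0.03, and edgeR called WEE1 higher and KIF11 and KIF20A lower. Genes with TTTGAA in their promoter window had a median log2 fold change of -0.03 (22 genes, from -0.19 to 0.23), and genes whose window lacks it had 0.02 (12 genes, from -0.27 to 0.30).

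**Figure D4:**
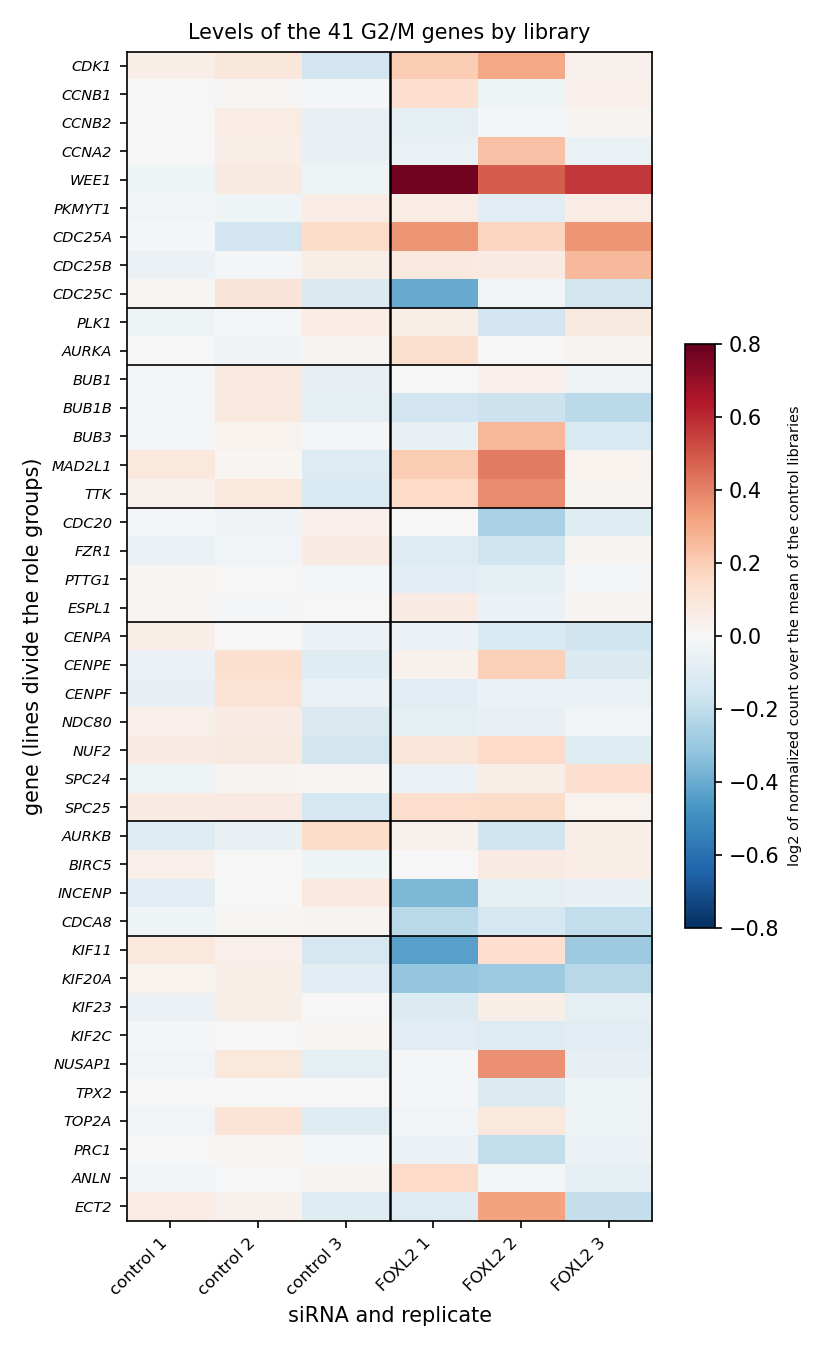
Colour gives the log2 ratio of each gene's normalized count (with 0.5 added) to the mean of the control siRNA libraries, for 41 genes (rows, grouped by role) and 6 libraries (columns, siRNA and replicate). WEE1 is the row with the strongest colour in all 3 FOXL2 siRNA libraries, and several rows, MAD2L1, TTK and NUSAP1 among them, are strongest in FOXL2 siRNA replicate 2.

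Genes that regulate or work with the 41 were read out of the same fit in 10 lists with 208 genes, of which 206 were tested. edgeR called none of them at an adjusted p below 0.05 with all libraries. Without FOXL2 siRNA replicate 2 it called 16, 1 higher (BTRC) and 15 lower, where it called 1.05% of all genes tested higher and 2.56% lower. DESeq2 called 12, 2 higher and 10 lower, where it called 1.22% of all genes higher and 1.78% lower. An unadjusted p below 0.05 was found for 34 (16.5%, against 13.5% of all genes tested). In the list of WEE1 turnover and partners, BTRC had the largest fitted log2 fold change. It encodes an F-box protein of the ubiquitin ligase that marks WEE1 for destruction. Its normalized counts were 17.7, 18.7 and 18.7 CPM with the control siRNA and 26.3, 24.4 and 24.7 CPM after FOXL2 siRNA, without overlap, and the log2 fold change was 0.45 (± 0.0758 as standard error, edgeR adjusted p = 0.0510, or 0.0136 without FOXL2 siRNA replicate 2, DESeq2 0.00475). Its TPM values overlapped, at 8.60, 8.59 and 7.39 against 9.57, 7.30 and 9.07, since its effective length was 3056, 3236 and 3679 bases with the control siRNA and 4021, 5276 and 4046 bases after FOXL2 siRNA. HSP90AB1, a chaperone subunit, was the other DESeq2 call of that list, lower by a log2 fold change of -0.34 (DESeq2 adjusted p = 0.00343, edgeR 0.117, or 0.0315 without FOXL2 siRNA replicate 2).
Of 23 genes for G2/M transcription, which hold the DREAM and MuvB subunits, FOXM1, MYBL2 and NF-Y, edgeR (with all libraries) and DESeq2 called none, and 3 had an unadjusted p below 0.05 (13.04%, against 13.5% of all genes tested). The median log2 fold change was 0.03. NFYA, a subunit of the factor that binds CCAAT boxes, had the fitted log2 fold change farthest from 0, -0.33 (± 0.0920 as standard error, edgeR adjusted p = 0.182, or 0.0393 without FOXL2 siRNA replicate 2), with 18.5 ± 2.19 and 14.7 ± 1.19 TPM (SD, n = 3 each). In the G2 checkpoint list, MDC1, a mediator of the DNA damage response, was lower in every FOXL2 siRNA library, with a log2 fold change of -0.37 (edgeR adjusted p = 0.108, or 0.0311 without FOXL2 siRNA replicate 2, DESeq2 0.00495). It was the only one of the 15 tested genes of that list called by DESeq2 (3% of all genes, 1.78% lower), and with all libraries edgeR called none.
For the circadian clock, whose factors are known to act on WEE1 transcription in liver, edgeR called none of 19 tested genes, DESeq2 called 1 (3% of all genes), and 6 had an unadjusted p below 0.05 (31.6%, against 13.5% of all genes tested). The DESeq2 call was CSNK1E, a kinase of clock proteins, at a log2 fold change of -0.32 (edgeR adjusted p = 0.108, or 0.0371 without FOXL2 siRNA replicate 2). RORA had the largest fitted value, 0.56 (95% interval 0.08 to 1.05, edgeR adjusted p = 0.312), at only 1.86 ± 0.527 and 2.78 ± 0.216 CPM (SD, n = 3 each). For RORA the value was 0.16 with effective lengths in edgeR (adjusted p = 0.888), and 0.44 to 0.83 with 1 library left out.

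The remaining lists cover mitotic machinery beyond the 41 genes. Among 24 other spindle and cytokinesis genes, 18 had lower and 6 higher values, where 48.6% of all genes tested were lower. An unadjusted p below 0.05 was found for 4, all lower (6.88% of all genes), edgeR called none with all libraries and DESeq2 called 3, all lower (1.78% of all genes). PIMREG, a mitotic regulator, had the fitted log2 fold change farthest from 0, -0.39 (edgeR adjusted p = 0.160, or 0.0229 without FOXL2 siRNA replicate 2, DESeq2 0.0149), with 111, 108 and 104 TPM with the control siRNA and 67.1, 94.5 and 85.1 TPM after FOXL2 siRNA. CEP55, which works in abscission, and MKI67, the gene of the proliferation marker Ki-67, were the other DESeq2 calls. CEP55 had a log2 fold change of -0.29 (edgeR adjusted p = 0.131, or 0.0346 without FOXL2 siRNA replicate 2). MKI67 had 108, 106 and 109 TPM with the control siRNA and 85.3, 100 and 95.7 TPM after FOXL2 siRNA, a log2 fold change of -0.26 (edgeR adjusted p = 0.117, or 0.0358 without FOXL2 siRNA replicate 2, DESeq2 0.00610). Other centromere and kinetochore genes (30 genes, median log2 fold change -0.00), condensin and cohesin (19 genes, -0.05), the APC/C core (17 genes, -0.02) and the Greatwall and phosphatase list (14 genes, 0.05) had no call by edgeR with all libraries or by DESeq2, and 0, 3, 2 and 0 of their genes had an unadjusted p below 0.05 (0%, 15.8%, 11.8% and 0%, against 13.5% of all genes tested). The fitted log2 fold changes farthest from 0 were 0.27 for CENPK, 0.23 for SGO2, 0.28 for ANAPC13 and 0.32 for PPP1CB, and those of CENPK, SGO2 and PPP1CB were 0.03, -0.02 and 0.05 without FOXL2 siRNA replicate 2.
Genes of S-phase replication gave the comparison with the phase before G2. Of 30, 21 had lower and 9 higher values, with a median log2 fold change of -0.10, and the groups did not overlap for 11 lower and 3 higher genes (46.7%, against 24.4% of the 41 G2/M genes and 20.5% of all genes tested). With all libraries edgeR called none, DESeq2 called 5, 4 of them lower (3% of all genes, 1.78% lower), and 11 had an unadjusted p below 0.05 (36.7%, against 13.5% of all genes tested). POLA1, the catalytic subunit of DNA polymerase alpha, had the value farthest from 0, with 10.3, 10.4 and 9.31 TPM with the control siRNA and 6.09, 8.97 and 7.51 TPM after FOXL2 siRNA, a log2 fold change of -0.45 (edgeR adjusted p = 0.135, or 0.00913 without FOXL2 siRNA replicate 2, DESeq2 0.0156). DESeq2 did not call POLA1 with effective lengths as offsets (adjusted p = 0.0521) or with a replicate block (adjusted p = 0.0543). Whether the replication genes and the 41 G2/M genes differ was not tested.

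The depletion was made in part to ask whether transcripts that respond to it hold sequences rich in G doublets, of the kind that FOXL2 bound in vitro. A motif of 8 GG doublets separated by 1 to 4 nucleotides was sought in the longest GENCODE v29 transcript of each gene. The longest model need not be the mRNA, and for WEE1 it is a retained-intron model of 5187 nucleotides, longer than the longest protein-coding transcript of 3436. The motif was found in 6 of the 41 G2/M genes (14.6%), which were AURKA, CDC25A, CDC25B, FZR1, INCENP and PTTG1, and in 19.3% of 15530 tested genes with a transcript. The longest transcripts had a median of 3576 nucleotides for the 41 genes and 3324 for all.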

How the data were processed

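Expression was compared in 6 RNA-seq libraries of KGN cells, 3 per siRNA, grouped by the labels. The authors sequenced stranded mRNA libraries with single reads of 75 bases, aligned them with STAR 2.7.6a, checked them with Picard 2.8.1 and estimated expression with RSEM 1.3.1. The submitters' processing notes name the build GRCm38, but all identifiers are human Ensembl genes, and the build used is therefore not certain. The deposited expected counts are estimated counts that had not been normalized, and the deposited TPM values were scaled by RSEM to a fixed total per library and to effective length. The deposited tables also give an effective length per gene and library, another value used here. Of the 41 genes, 30 had whole counts in all 6 libraries (tolerance 0.001), and the other 11 had fractional counts in at least 1 library. Whether they share reads with other genes was not tested.

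Expected counts were rounded, filtered with filterByExpr (15663 genes with at least 99.9% of the counts of each library), normalized by TMM and tested with the quasi-likelihood test of edgeR 4.0.16 (R 4.3.3) over all genes, adjusting p-values by Benjamini-Hochberg at a threshold of 0.05. DESeq2 1.42.0, which the authors used in version 1.26.0, limma 3.58.1 and the other alternatives are given below. CPM values are TMM-normalized, errors are SDs of 3 libraries, and intervals are 95% intervals of the fit. The fitting code was tested on simulated data. Exact permutation tests over libraries were two-sided with a smallest p of 0.1. The members and lists were chosen with earlier results of these data known, the call of WEE1 among them. The rule named FOXL2, WEE1, PKMYT1, CDK1, called genes, the largest change and highest TPM of each role group and the largest change of each related list. Other genes named were chosen after their values were seen. A gene name table gave symbols for 60401 of 60671 identifiers. FPKM values were not used. Plots were made with Python 3.11.15 and matplotlib 3.10.9.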

Additional observations from a re-analysis of the deposited data

How the results depend on the processing

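WEE1 kept its direction under every alternative run, with log2 fold changes from 0.53 to 0.67, but not its call. It was not called with effective lengths as offsets in edgeR (0.587, adjusted p = 0.0758) or with limma on log2(TPM + 0.1) (0.576, 0.118) and log2(TPM + 1) (0.565, 0.127), and it was called with another scaling, unrounded counts, other filters, limma-voom and DESeq2. Leaving out 1 library gave 0.53 to 0.67. Same-numbered libraries deviated from their group means with correlations of -0.0533, 0.0538 and 0.0678 over genes. For libraries with different numbers the correlations ran from -0.142 to 0.112. With 3 libraries per group these values cannot settle whether the numbers pair the libraries. A replicate block in edgeR gave 0.613 for WEE1 (adjusted p = 0.0916), 0 calls among the 41 genes and 11 among all genes, and in DESeq2 it gave 179 calls among all genes, 5 in the related lists and 1 among the 41 genes, where WEE1 was called (0.61, adjusted p = 2.99e-05) and KIF20A was not (adjusted p = 0.0624).

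The number of calls among all genes, 40 in the report, was 350 with DESeq2, 344 with effective lengths in DESeq2, 13 with limma at either pseudocount, 64 at a mean of at least 50 counts, 70 without a filter, 5 at an adjusted p below 0.01, and 2 to 579 with 1 library left out. Among the 41 genes it was 2 with DESeq2 with or without lengths, 0 with lengths in edgeR, with limma on TPM and at an adjusted p below 0.01, and 0 to 3 with 1 library left out. In the related lists, with 0 in the report, it was 12 with DESeq2, 9 with lengths in DESeq2, 1 at a mean of at least 50 counts, and 0 to 16 with 1 library left out, the 16 (1 higher, 15 lower) without FOXL2 siRNA replicate 2.

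The median log2 fold change of the 41 genes, 0.01, was -0.0176 and -0.0122 with lengths in DESeq2 and edgeR, -0.00848 and -0.00842 with limma at pseudocounts of 0.1 and 1, and -0.0335 to 0.00852 with 1 library left out. The ratio of summed TPM stayed between 0.984 and 1.004 with 1 library left out, and was 0.995 with CPM summed instead, an alternative chosen after seeing the data. Signs turned only for genes that were not called. In the order lengths in DESeq2, lengths in edgeR, limma with 0.1 and limma with 1, PKMYT1 had -0.125, -0.120, -0.118 and -0.116, PLK1 had 0.0150, 0.0201, 0.0209 and 0.0208, and BUB3 had -0.0446, -0.0393, -0.0374 and -0.0373. BIRC5 had -0.0015 with lengths in DESeq2. With 1 library left out, the ranges were -0.0137 to 0.0535 for PKMYT1, -0.0491 to 0.0593 for PLK1, -0.0946 to 0.108 for BUB3, -0.0388 to 0.0719 for ANLN and -0.0228 to 0.376 for SGO2. For CCNB2 the range was -0.0521 to 0.00852 and for CCNA2 -0.0584 to 0.0968. The cause of these differences was not tested. Effective lengths, which RSEM estimated in each library, limit genes such as MAD2L1 and PKMYT1.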
